A study of Mus musculus with 6 samples.

Results

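The S100 proteins and annexins were followed through 10 genes chosen by name: S100a6, S100a8, S100a9, S100a10, S100a11, S100a4, Anxa1, Anxa2, Anxa3 and Anxa5. Of these, 9 were among the 7340 genes of the table, and S100a4 was not analysed here. The rest of both families was looked for as well, which brought in S100a1, S100a3, S100a13, S100a14, S100a16 and Anxa6, so that 15 of the 29 family symbols looked for had values (10 of 17 S100 genes and 5 of 12 annexins).

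RNA-seq libraries came from 3 kidney samples with ischemia-reperfusion injury (IRI, a stop of the blood flow followed by its return) and MK-8617, and from 3 kidney samples with IRI alone. MK-8617 blocks the prolyl hydroxylases, the enzymes through which oxygen triggers the breakdown of hypoxia-inducible factor (HIF). The series' design text speaks of tumors, whereas the labels of all 6 samples give kidney, which was followed. All 6 were labelled wild type (WT), and both groups carry the injury, so every comparison is between injured kidneys with and without the compound. An uninjured or untreated kidney was not analysed here. The labels name no strain, dose, age or time, although the column names carry a 1-day tag. Whether the 3 samples of a group are separate animals is not stated in the labels, so all p-values rest on the spread among these libraries, and that spread may be technical. The treatment field of MK-8617 replicates 2 and 3 reads MK8618 and MK8619, whereas the titles of all 3 read MK8617, which was followed.

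The libraries with MK-8617 held a calculated 16835541 to 17577794 reads assigned to genes, and the libraries with IRI alone 18620621 to 19508497. Kidney origin was checked on proximal tubule genes: Ggt1, an enzyme of the brush border, had 12284 to 14007 normalised reads with MK-8617 and 5433 to 10631 with IRI alone, and Slc22a8, an organic anion transporter, was also present in every sample. Every gene of the table has an unadjusted p below 0.05 in the authors' own test, so shares and medians over it describe that selection and not all expressed genes.

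S100 proteins are small calcium sensors with EF-hand motifs that mostly act as dimers inside cells, where calcium binding exposes a surface for partner proteins. Some of them, S100a8 and S100a9 above all, are also released and act on receptors of immune cells. Annexins are a separate family that binds phospholipid membranes when calcium rises, and several of them have an S100 partner that bridges membranes, such as S100a10 for Anxa2 and S100a11 for Anxa1. In kidney, several members are known as genes of injured tubules, interstitial cells and infiltrating leukocytes.

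All 9 genes of the named set were lower with MK-8617 than with IRI alone, and so were the 6 other family members. Read counts scaled for library size (normalised reads) were compared on the log2(value + 1) scale with limma, and a gene was called at an adjusted p below 0.05. The median log2 fold change was -1.25 over the 9 genes, -1.31 over the 10 S100 genes and -0.57 over the 5 annexins, beside -0.31 over the 6961 genes tested. By the same call, 38.7% of the tested genes were lower, 35.7% were higher and 74.3% differed either way, so a lower call alone was common in this table. The groups did not overlap, with MK-8617 below IRI alone, for 14 of the 15 genes, beside 47.6% of tested genes, and 92.5% of tested genes did not overlap in one direction or the other. One of these 14, S100a3, passed a filter on low counts through the IRI samples alone. It therefore adds nothing to this count or to the lower calls and S100 median above. In the authors' deposited table, all 15 genes had a negative log2 fold change at an adjusted p below 0.05, as did 40.8% of the listed genes. In bulk tissue, fewer cells of a type and less RNA per cell cannot be told apart, and this holds for every value given here.

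**Figure D1:**
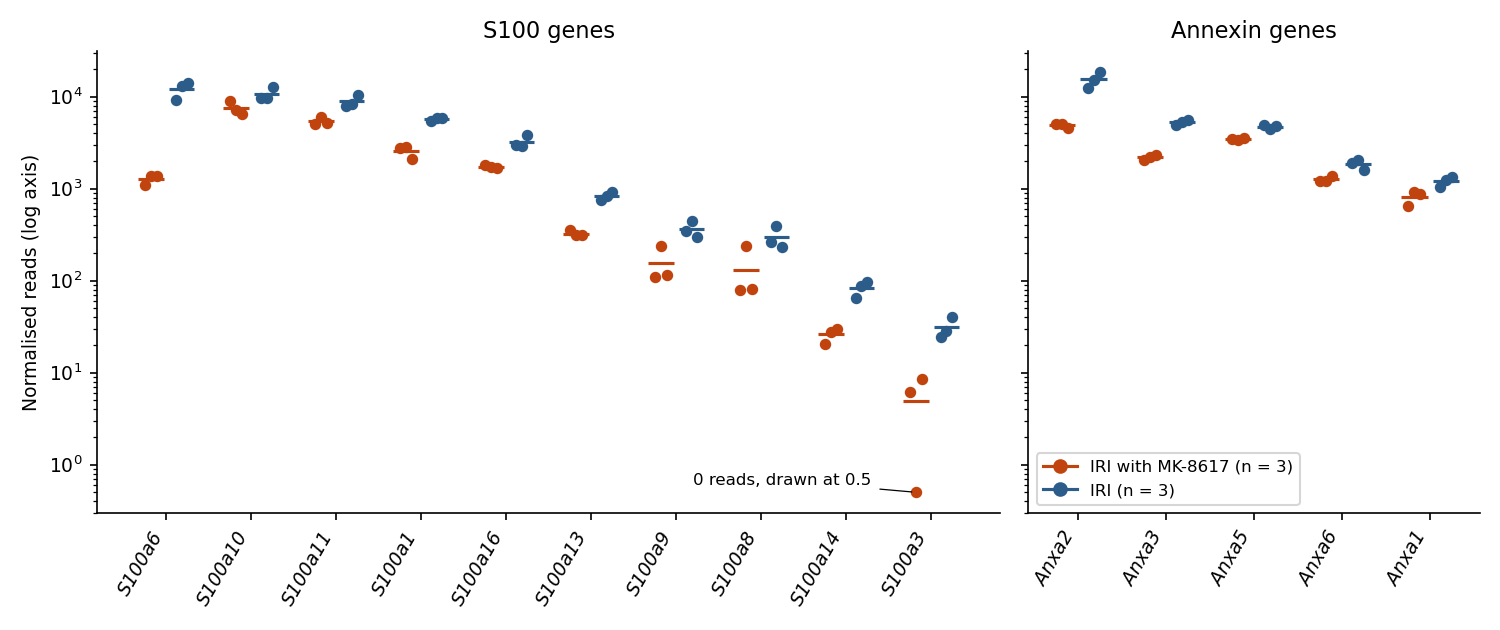
Normalised reads per sample (log axis) of the 15 S100 and annexin genes, for IRI with MK-8617 and IRI alone; each point is 1 sample, the lines are means, and the value of 0 for S100a3 is drawn at 0.5. S100a6 spans 1089 to 1382 reads with MK-8617 and 9282 to 14085 with IRI alone, and only the S100a8 samples overlap between the groups.

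S100a6 (calcyclin, ENSMUSG00000001025) had a larger fold change than every other member in every alternative run, apart from the scarce S100a3, which exceeded it with a pseudocount of 0.5, in limma-voom and without MK-8617 replicate 1 or 3. It is an intracellular calcium sensor, made by proliferating fibroblasts and epithelia, that binds the ubiquitin ligase adaptor Cacybp. The gene lies on chromosome 3 at 90612882 to 90624181 on the plus strand (GRCm38), in a cluster with 7 of the other S100 genes listed. It had 1089, 1358 and 1382 normalised reads with MK-8617, against 9282, 13017 and 14085 with IRI alone. The highest MK-8617 sample lay far below the lowest IRI sample. The mean with MK-8617, 1276 ± 163, was 10.5% of the IRI mean of 12128 ± 2522 (SD, n = 3 each). The log2 fold change was -3.23 ± 0.17 (SE), at an adjusted p of 1.67e-05 by limma. FPKM is a read level scaled for the length of a gene's merged exons and for library depth. In FPKM, S100a6 made up 3.31%, 3.94% and 4.76% of the summed level of the 10 listed S100 genes with MK-8617. With IRI alone it made up 16.1%, 20.3% and 19.0%. S100 genes outside the table are not in this sum.

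The sequence before the start of S100a6 is shown because of its large fold change, and those of S100a9, S100a11 and Anxa2 because they stand for the calprotectin pair, the second S100 cluster and the annexins. All are from RefSeq on GRCm38.p6, run 5′ to 3′ on the gene's own strand and stop at the annotated gene start; for S100a9 on the minus strand the coordinates run the other way. Capitals mark matches to the core of the HIF response element, ACGTG or GCGTG, and to the AP-1 element, TGACTCA or TGAGTCA, on either strand.
S100a6, chr3:90612644-90612881, plus strand: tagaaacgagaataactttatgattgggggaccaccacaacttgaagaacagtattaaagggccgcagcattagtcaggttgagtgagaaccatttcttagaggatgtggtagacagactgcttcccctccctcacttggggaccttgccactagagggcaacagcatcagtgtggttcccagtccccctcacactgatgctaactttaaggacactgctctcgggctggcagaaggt
S100a9, chr3:90695722-90695971, minus strand: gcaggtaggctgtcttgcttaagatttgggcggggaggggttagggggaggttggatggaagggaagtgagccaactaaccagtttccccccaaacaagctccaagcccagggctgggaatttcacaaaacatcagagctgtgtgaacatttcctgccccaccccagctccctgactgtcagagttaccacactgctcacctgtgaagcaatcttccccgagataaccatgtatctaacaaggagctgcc
S100a11, chr3:93520246-93520487, plus strand: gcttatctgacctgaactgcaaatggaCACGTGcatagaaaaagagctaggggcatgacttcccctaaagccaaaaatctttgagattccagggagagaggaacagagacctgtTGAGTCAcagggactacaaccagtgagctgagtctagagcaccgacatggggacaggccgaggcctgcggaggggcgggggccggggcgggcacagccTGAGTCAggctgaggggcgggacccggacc
Anxa2, chr9:69453433-69453619, plus strand: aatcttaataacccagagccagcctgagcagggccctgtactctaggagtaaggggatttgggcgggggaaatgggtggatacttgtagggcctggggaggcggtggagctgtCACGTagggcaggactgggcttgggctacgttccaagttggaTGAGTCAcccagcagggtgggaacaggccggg

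Promoter sequences were matched for 11 of the 15 genes. Within the 250 bases before the RefSeq start, the HIF core occurred in 5 of the 15 promoters that these genes have in the table (1 each of Anxa2, Anxa5, S100a11, S100a13 and S100a3), beside 38.6% of 32851 promoters. The AP-1 element occurred in 2 of the 15 (Anxa2 and S100a11), beside 4.46% of the promoters. In S100a11 the AP-1 letters appeared at 136 and 38 bases before the start, and its single HIF match is a palindrome that counts on both strands. In Anxa2 the HIF match lay 137 bases and the AP-1 match 95 bases before the RefSeq start. Neither set of letters was found in the printed stretches of S100a6 and S100a9. A match of letters describes the sequence and does not show binding.

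Anxa2 and S100a10 form a known complex, in which S100a10 (p11) joins Anxa2 molecules at the inner face of the plasma membrane and binds tissue plasminogen activator and plasminogen at its outer face. Anxa2 (ENSMUSG00000032231, chromosome 9 at 69453620 to 69491795, plus strand) had 5029, 5035 and 4627 normalised reads with MK-8617, against 12456, 15279 and 18673 with IRI alone. The MK-8617 samples lay close together and all below the IRI samples. Anxa2 fell to 4897 ± 234 with MK-8617, which was 31.7% of the IRI mean of 15469 ± 3113 (SD, n = 3 each), a log2 fold change of -1.64 ± 0.15 (SE, adjusted p = 0.000184 by limma). A 98-base stretch of Anxa2 exons overlaps the antisense gene Gm16144, and the counting is not stated to use strand.

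S100a10 (ENSMUSG00000041959, chromosome 3 at 93555080 to 93564643, plus strand) had a smaller fold change. It had 8946, 7136 and 6480 normalised reads with MK-8617, against 9611, 9681 and 12717 with IRI alone. The groups did not overlap, but the highest MK-8617 sample lay just under the lowest IRI samples. The mean was 7521 ± 1277 with MK-8617 and 10670 ± 1773 in the IRI samples (SD, n = 3 each), and the log2 fold change was -0.51 ± 0.16 (SE, adjusted p = 0.0418 by limma). The call was lost without MK-8617 replicate 2 or 3 (adjusted p = 0.133 and 0.156 by limma) and without IRI replicate 1 or 3 (adjusted p = 0.0552 and 0.0763). It was also lost with TMM scaling (adjusted p = 0.0759 in edgeR and 0.0716 in limma-voom), on log2(FPKM + 0.1) (0.0547) and with a mean of at least 5 CPM (0.0523). With trends on length, or on length and GC content, removed, the log2 fold change was 0.046 and 0.032. Over all alternatives its adjusted p ran from 0.0117 to 1.

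The ratio of S100a10 to Anxa2 did not overlap between the groups. In FPKM it was 5.48, 4.36 and 4.31 with MK-8617, against 2.38, 1.95 and 2.10 with IRI alone, higher in every MK-8617 sample. The log2 ratio was 2.23 ± 0.19 with MK-8617 and 1.09 ± 0.14 in the IRI samples (SD, n = 3 each), a difference of 1.14. An exact two-sided permutation test gave p = 0.1, the smallest that 3 samples against 3 can give. The ratios of 3 partner combinations were compared, and the other two are given with their genes.

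Anxa3, a membrane annexin of neutrophils and epithelia, had the smallest standard error of the 15 genes after Anxa5. The gene (ENSMUSG00000029484) lies on chromosome 5 at 96793339 to 96845966 on the plus strand, and 112 bases of its exons overlap the predicted gene Gm42603. It had 2062, 2230 and 2332 normalised reads with MK-8617, against 4907, 5287 and 5540 with IRI alone. Every MK-8617 sample was under every IRI sample. Anxa3 fell to 2208 ± 136 with MK-8617, 42.1% of the IRI mean of 5245 ± 318 (SD, n = 3 each), with a log2 fold change of -1.25 ± 0.10 (SE, adjusted p = 0.000111 by limma).

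Anxa5, the annexin used as a probe for phosphatidylserine on dying cells, and Anxa6, a larger annexin of endosomes and the plasma membrane, were lower by less than 1 on the log2 scale. Anxa5 (ENSMUSG00000027712, chromosome 3 at 36448923 to 36475894, minus strand) had 3458, 3421 and 3566 normalised reads with MK-8617, against 4918, 4420 and 4799 with IRI alone. The samples of each group lay close together and the groups were apart. The log2 fold change of Anxa5 was -0.44 ± 0.09 (SE, adjusted p = 0.00929 by limma). Anxa6 (ENSMUSG00000018340, chromosome 11 at 54979108 to 55033445, minus strand) averaged 1268 ± 92.7 with MK-8617 and 1851 ± 221 in the IRI samples (SD, n = 3 each), a log2 fold change of -0.54 ± 0.12 (SE, adjusted p = 0.00877).

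Anxa1 (lipocortin), an anti-inflammatory protein of leukocytes and epithelia whose fragments act on formyl peptide receptors, was also lower. The gene (ENSMUSG00000024659) is on chromosome 19 at 20373428 to 20390944, minus strand. It had 644, 921 and 884 normalised reads with MK-8617, against 1035, 1240 and 1330 with IRI alone. The groups did not overlap, and MK-8617 replicate 1 was the lowest sample. The log2 fold change was -0.57 ± 0.16 (SE, adjusted p = 0.0257 by limma). The call was lost without MK-8617 replicate 1 or 3 (adjusted p = 0.0815 and 0.0535 by limma) and without IRI replicate 2 or 3 (adjusted p = 0.0637 and 0.0502), and the adjusted p ran from 0.00693 to 0.0815 over all alternatives.

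Its partner S100a11 binds the amino end of Anxa1 and takes part in membrane repair. S100a11 had the highest FPKM of the 15 listed S100 and annexin genes in both groups. S100a11 (ENSMUSG00000027907, chromosome 3 at 93520488 to 93526287, plus strand) had 5072, 6089 and 5121 normalised reads with MK-8617, against 7981, 8421 and 10440 with IRI alone. The groups did not overlap. The log2 fold change was -0.72 ± 0.13 (SE, adjusted p = 0.00461 by limma). It was -0.13 with a trend on transcript length removed (adjusted p = 0.895) and -0.14 with trends on length and GC content removed (adjusted p = 0.882), so the call was lost, with adjusted p from 7.47e-06 to 0.895 over all alternatives. A processed copy, S100a11-ps, exists in the annotation, and how reads shared with it were counted is not given in the sources used here. The FPKM ratio of S100a11 to Anxa1 was 40.2, 33.7 and 29.6 with MK-8617, against 39.3, 34.7 and 40.1 with IRI alone. These overlapped, with a log2 difference of -0.15 (exact two-sided permutation p = 0.4), which was 0.44 with both trends removed.

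**Figure D2:**
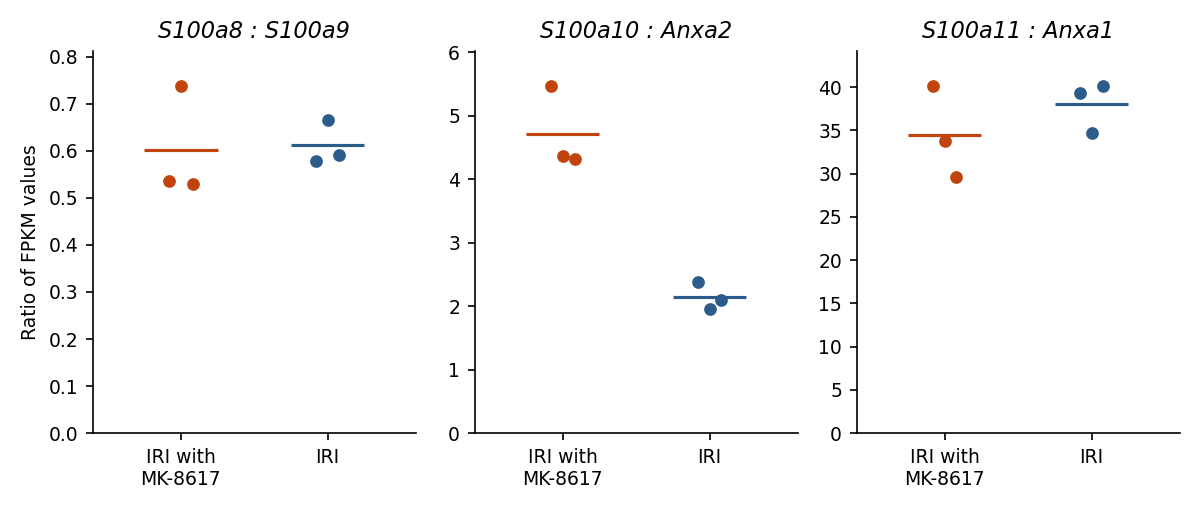
FPKM ratios of S100a8 to S100a9, S100a10 to Anxa2 and S100a11 to Anxa1 in each sample, for IRI with MK-8617 and IRI alone; points are samples and lines the arithmetic means of 3 ratios. The S100a10 to Anxa2 ratio spans 4.31 to 5.48 with MK-8617 and 1.95 to 2.38 with IRI alone, whereas the samples of the other two ratios overlap.

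S100a8 and S100a9 encode the subunits of calprotectin, an abundant complex of neutrophils and monocytes that binds calcium and zinc and signals through Tlr4 once released. S100a9 (ENSMUSG00000056071, chromosome 3 at 90692632 to 90695721, minus strand) had 111, 240 and 115 normalised reads with MK-8617, against 345, 441 and 297 with IRI alone. S100a8 (ENSMUSG00000056054, chromosome 3 at 90668978 to 90670035, plus strand) had 78.9, 236 and 80.8 normalised reads with MK-8617, against 266, 390 and 234 with IRI alone. MK-8617 replicate 2 was the highest sample of its group in both genes, and in S100a8 it reached just above IRI replicate 3, so that the S100a8 groups overlapped. The log2 fold change was -1.29 ± 0.30 for S100a9 (SE, adjusted p = 0.0119 by limma). For S100a8 it was -1.33 ± 0.40 (SE, adjusted p = 0.0376).

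Neither call of the calprotectin genes held in every alternative. S100a8 missed the threshold without MK-8617 replicate 1 or 3 (adjusted p = 0.142 and 0.17 by limma), without IRI replicate 1 or 2 (adjusted p = 0.0718 and 0.144), in edgeR's quasi-likelihood test with deposited or TMM scaling (adjusted p = 0.0802 and 0.0976), on log2(FPKM + 0.1) (0.0556) and with either trend removed. Over all alternatives its adjusted p ran from 0.00435, without MK-8617 replicate 2, to 0.309. S100a9 missed it without MK-8617 replicate 1 or 3 (adjusted p = 0.0531 and 0.066 by limma) and with either trend removed, in a range from 0.000716 to 0.146. The FPKM ratio of S100a8 to S100a9 was 0.536, 0.739 and 0.529 with MK-8617, against 0.579, 0.665 and 0.592 with IRI alone, with a log2 difference of -0.04 (exact two-sided permutation p = 0.9).

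Of 22 neutrophil markers looked for, 6 were listed, 5 were tested, none was called lower and 1 was called higher. Over all tested genes, 38.7% were lower and 35.7% higher. Ngp, a granule protein of immature neutrophils, had 20.5, 41.6 and 20.2 normalised reads with MK-8617, against 0.946, 0 and 4.79 with IRI alone (log2 fold change 3.58 ± 0.70 SE, adjusted p = 0.00562 by limma). Ngp passed the filter on low counts through the MK-8617 samples alone, so its call supports nothing about the calprotectin genes. Fpr1 and Clec4d had log2 fold changes of -1.41 and -1.04, neither of them called (adjusted p = 0.0576 and 0.121 by limma). Fpr1 had 3.07, 7.47 and 4.25 normalised reads with MK-8617 and passed the filter through the IRI samples alone, so its change supports nothing either. Without MK-8617 replicate 2, 2 neutrophil markers were called lower. The summed level of the 6 listed markers was 450, 367 and 563 normalised reads with MK-8617, against 417, 308 and 386 with IRI alone. Most of that sum was Hdc, which mast cells and kidney tubules also express. Wfdc21 had 0 reads in MK-8617 replicate 3, and Ly6g, Mpo and Elane were not analysed here.

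Macrophage and monocyte markers were mostly lower: of 19 looked for, 15 were tested, 12 were lower and 1 was higher by limma. Among all tested genes, 38.7% were lower and 35.7% higher. Ly6c2, Ms4a7 and Aif1, which are among the 12, passed the filter on low counts through the IRI samples alone. Lyz2, lysozyme of myeloid cells, had 90.2, 204 and 124 normalised reads with MK-8617, against 1109, 1922 and 590 with IRI alone. The complement genes C1qc and C1qa were lower by log2 fold changes of -1.54 and -1.32 (adjusted p = 0.000805 and 0.00167). The summed level of the 15 listed markers was 2719, 2748 and 2155 with MK-8617, against 5182, 6947 and 3558 with IRI alone. Like S100a8 and S100a9, Lyz2 and Clec4d were highest in replicate 2 within each group. The part of leukocyte numbers in the S100a8 and S100a9 values was not tested.

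**Figure D3:**
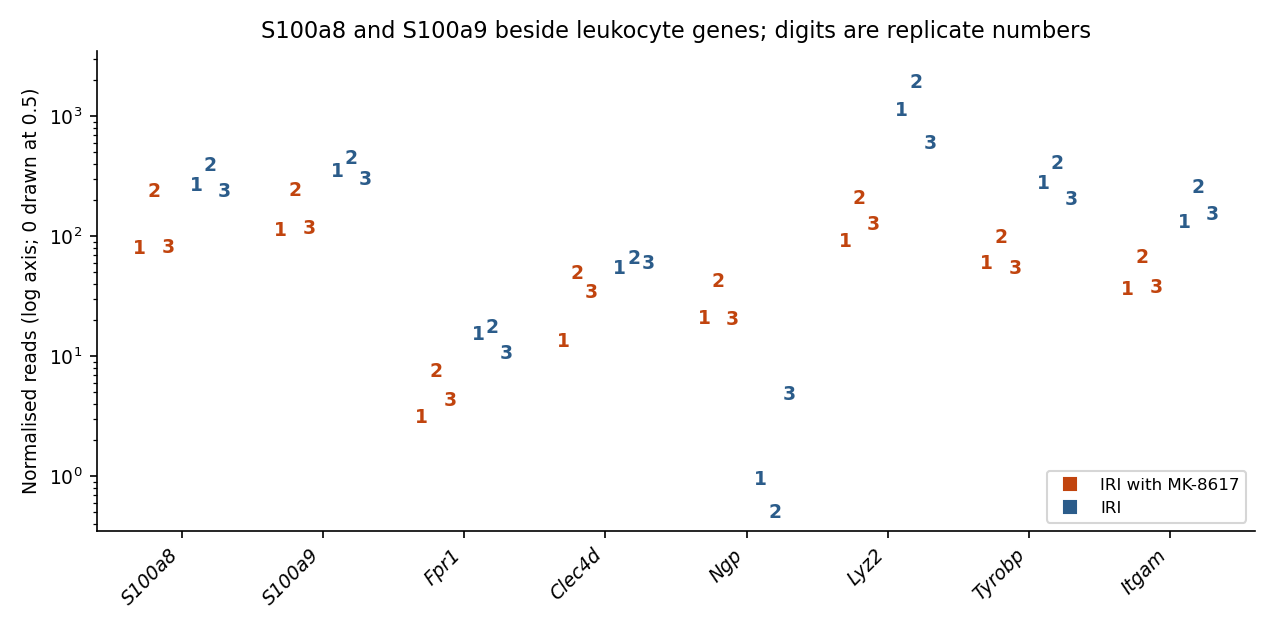
Normalised reads (log axis, 0 drawn at 0.5) of S100a8, S100a9 and 6 leukocyte genes in each sample of IRI with MK-8617 and IRI alone; the digit of each point is its replicate number. MK-8617 replicate 2 is the highest MK-8617 sample of all 8 genes, and Ngp is the one gene with MK-8617 above IRI alone.

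The remaining S100 genes are less studied in kidney. S100a1, a calcium sensor of muscle and kidney, averaged 2580 ± 420 normalised reads with MK-8617 and 5760 ± 254 in the IRI samples (SD, n = 3 each), a log2 fold change of -1.17 ± 0.13 (SE, adjusted p = 0.000504 by limma). S100a13, which takes part in the release of fibroblast growth factor 1, averaged 326 ± 22.4 with MK-8617 and 840 ± 82.0 in the IRI samples (log2 fold change -1.36 ± 0.12, adjusted p = 0.000155). S100a16 averaged 1742 ± 61.5 with MK-8617 and 3238 ± 543 in the IRI samples (log2 fold change -0.88 ± 0.13, adjusted p = 0.00143). In each of these genes the groups did not overlap.

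S100a14 and S100a3 were scarce. S100a14, an epithelial member, had 20.5, 27.7 and 29.8 normalised reads with MK-8617, against 65.3, 87.4 and 97.8 with IRI alone (log2 fold change -1.64 ± 0.29 SE, adjusted p = 0.00361 by limma). S100a3, known from hair follicles, had 6.15, 0 and 8.51 with MK-8617, against 24.6, 28.2 and 40.3 with IRI alone. It passed the filter on low counts through the IRI samples alone, and its exons overlap the predicted gene Gm42674. Its log2 fold change of -2.94 ± 0.80 (SE, adjusted p = 0.0238) depends on the pseudocount and became -1.96 with a pseudocount of 5, -1.49 on log2(FPKM + 0.1) and -1.93 without MK-8617 replicate 2. It was -3.31 with a pseudocount of 0.5, and -3.35 and -3.55 without MK-8617 replicate 1 and 3. Without IRI replicate 1, 2 or 3 the adjusted p was 0.0502, 0.0592 and 0.0502, in a range from 0.00368 to 0.086 over the alternatives.

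Compared in FPKM, the highest values among the 15 listed genes belonged to S100 genes, and the order differed between groups. With MK-8617 the mean FPKM was 590 ± 60.4 for S100a11, 345 ± 58.0 for S100a10, 207 ± 32.8 for S100a1, 109 ± 2.86 for Anxa5, 72.9 ± 3.19 for Anxa2, 59.9 ± 1.98 for S100a16, 51.9 ± 6.68 for S100a6 and 33.7 ± 2.17 for Anxa3 (SD, n = 3). With IRI alone it was 985 ± 140 for S100a11, 499 ± 102 for S100a6, 495 ± 80.2 for S100a10, 467 ± 19.1 for S100a1, 233 ± 45.9 for Anxa2, 149 ± 8.39 for Anxa5, 113 ± 18.4 for S100a16 and 81.0 ± 4.57 for Anxa3. S100a6 thus ranked 7 of 15 with MK-8617 and 2 of 15 with IRI alone, where its samples overlapped those of S100a10, and those of S100a10 overlapped S100a1.

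Further down, S100a13 and Anxa6 overlapped with MK-8617, as did Anxa1 with S100a9 and S100a9 with S100a8. With IRI alone, S100a9 overlapped Anxa6 and Anxa1 overlapped S100a8. The summed FPKM of the 10 listed S100 genes was 1336, 1397 and 1186 with MK-8617, against 2384, 2643 and 3045 with IRI alone. That of the 5 listed annexins was 251, 258 and 262 with MK-8617, against 481, 518 and 576 with IRI alone. The sums hold only genes listed at an unadjusted p below 0.05 in the authors' test. All of these genes were lower with MK-8617, so the lower sums add nothing to the values per gene. For most genes the authors' FPKM divides by the merged exon length. For Anxa1 it implies a length of 2608 nt, beside a merged length of 2911 nt in the annotation used. For S100a6 the merged length is 1367 nt beside 731 nt for the principal transcript, and for S100a3 5660 nt beside 712 nt. It is also longer for Anxa2 (3731 beside 1447 nt), Anxa3 (3643 beside 1595 nt) and S100a10 (1212 beside 685 nt), among others. For S100a11 both lengths are 511 nt. FPKM thus sets genes with a long merged length low relative to others. The order of genes and the level of each partner ratio depend on this choice of length.

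The 10 listed S100 genes lie in 2 places on chromosome 3. The first cluster (90511034 to 90695721, GRCm38) holds 13 coding genes, 11 of them S100 genes looked for, and all 8 that were listed were lower. Among these 8, S100a3 passed the filter on low counts through the IRI samples alone. The second cluster (93520488 to 93564643) holds S100a11 and S100a10. Genes in between did not move as one: of 60 coding genes 3 were listed, and Tchhl1 was lower (log2 fold change -0.87), Tchh was higher (0.91) and Sprr1a was not called. In the 500 kb before the first cluster 4 of 8 listed genes were lower and 3 were higher, beside 38.7% and 35.7% of all tested genes. S100a1 and S100a13 point away from each other across a short gap, chr3:90514393-90514434, printed here on the plus strand because both neighbours were lower:
S100a1 to S100a13 gap: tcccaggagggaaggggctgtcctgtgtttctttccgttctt

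Transcript length moved with the fold change across the table. Of 779 tested coding genes with a principal transcript of up to 1200 nt, 72.0% were lower and 10.5% higher, with a median log2 fold change of -0.78. Of 5381 longer ones, 34.6% were lower and 38.4% higher, with a median of 0.28. The S100 transcripts measure 486 to 1127 nt and fall in the short class, whereas the annexins measure 1447 to 2489 nt. Of 1571 coding genes between 1400 and 2499 nt, 45.8% were lower, with a median of -0.43.

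When trends on length, or on length and GC content, were removed from each sample, 4 or 5 of the 9 named genes and 5 of the 10 S100 genes were still called lower. In the same fits, 2514 (length) and 2427 (length and GC) of 6959 tested genes were called lower. This removal moved the median of all tested genes by 0.22 on the log2 scale. S100a6 kept log2 fold changes of -2.70 (length) and -2.63 (length and GC), Anxa2 -1.47 and -1.46, and Anxa3 -1.16 and -1.19. S100a10 was no longer lower, at 0.046 and 0.032 (adjusted p = 1 by limma in both). S100a11 was at -0.13 and -0.14 (adjusted p = 0.895 and 0.882), S100a8 at -0.74 and -0.75 (adjusted p = 0.309 and 0.298) and S100a9 at -0.70 and -0.71 (adjusted p = 0.146 and 0.133).

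The called but smaller changes were -0.62 and -0.56 for S100a1, -0.82 and -0.75 for S100a13 and -0.53 and -0.44 for S100a16. Anxa1 missed the threshold with the length trend removed, at a log2 fold change of -0.51 beside -0.57 (adjusted p = 0.0514 by limma). S100a3 missed it with either, at -2.40 and -2.31 beside -2.94 (adjusted p = 0.0729 and 0.086). Anxa5, Anxa6 and S100a14 kept their calls. The log2 difference in the S100a10 to Anxa2 ratio became 1.49 with both trends removed, an alternative added after seeing the data. The part of transcript length in these fold changes was not tested.

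**Figure D4:**
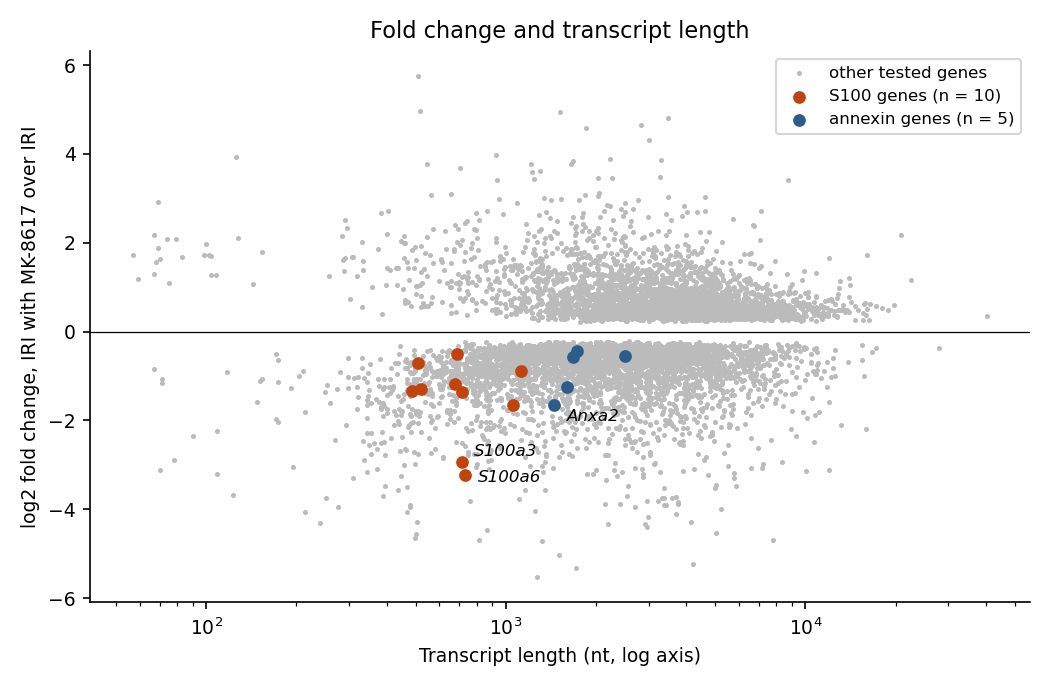
Log2 fold change (IRI with MK-8617 over IRI alone) against principal transcript length (nt, log axis); grey points are the other tested genes, and S100 and annexin genes are coloured. All listed genes have an unadjusted p below 0.05, and none lies close to 0. The 10 S100 genes lie at 486 to 1127 nt, where most genes are below 0, and S100a6 lies at -3.23.

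**Figure D5:**
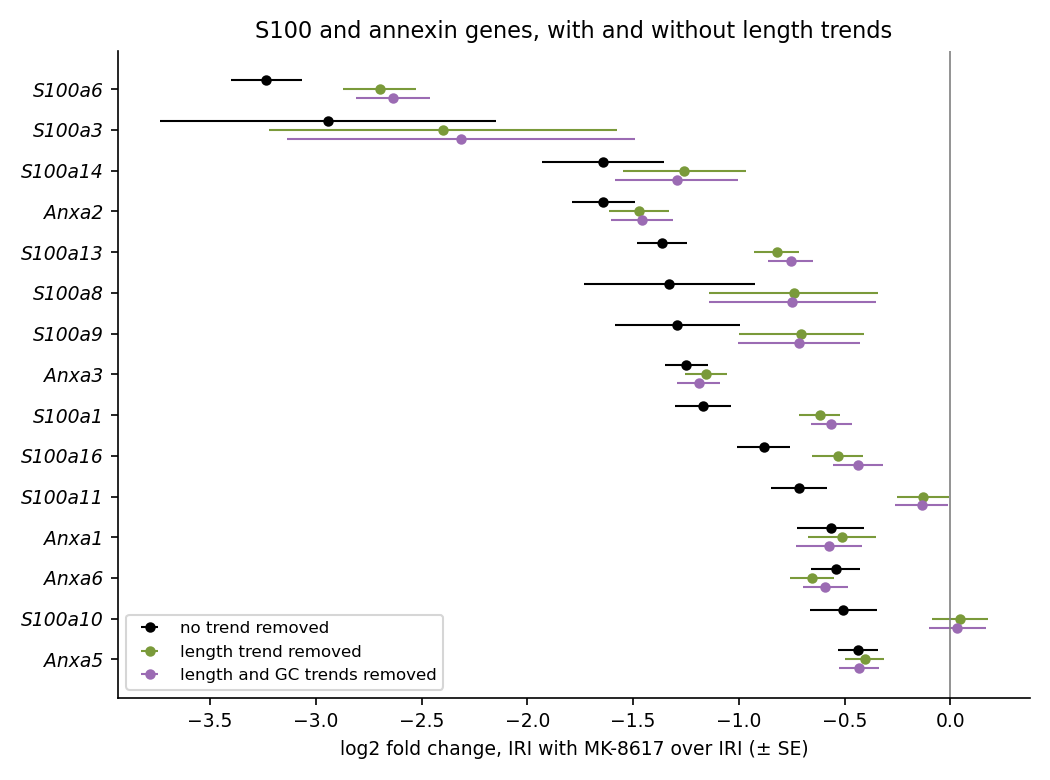
Log2 fold change ± SE (IRI with MK-8617 over IRI alone) of the 15 genes in 3 fits, from which no trend, the length trend, or both length and GC trends were taken out. S100a6 is at -3.23, -2.70 and -2.63, and S100a10 at -0.51, 0.046 and 0.032.

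Receptors and binding partners of both families were counted by the same call. Of 18 looked for, 10 were tested, 3 were lower and 1 was higher, beside 38.7% lower and 35.7% higher over all tested genes. Cacybp, the partner of S100a6, averaged 772 ± 71.1 normalised reads with MK-8617 and 1300 ± 33.9 in the IRI samples (SD, n = 3 each), a log2 fold change of -0.76 ± 0.10 (SE, adjusted p = 0.00109 by limma). Sri (sorcin, a calcium sensor that binds annexins) was lower by -0.50, and Pla2g4a, the phospholipase that annexins can inhibit, by -0.66 (adjusted p = 0.047). Trpv5, the calcium channel of the distal tubule that S100a10 and Anxa2 bring to the membrane, was higher (log2 fold change 0.93, adjusted p = 0.0120), but missed the threshold when MK-8617 replicate 1 or 3 was left out, and 2 partners were higher without IRI replicate 2. Ager, the receptor for several S100 proteins, was not called.

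Of 10 genes of plasminogen activation, the process that the Anxa2 complex assists, 2 were listed and tested. By limma, 0 were called lower and 1 was called higher, beside 38.7% lower and 35.7% higher over all tested genes. The gene called higher is not named here. The median log2 fold change of these genes was 0.31, beside -0.31 over all tested genes. Plgrkt, a plasminogen receptor, had 394, 480 and 372 normalised reads with MK-8617, against 567, 604 and 489 with IRI alone, with no overlap. Its log2 fold change was -0.41 and it was not called, but was called lower without MK-8617 replicate 2 or IRI replicate 3.

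Of 14 genes of plasma membrane repair, in which annexins and S100a11 take part, 10 were tested and 9 were lower, beside 38.7% of all tested genes. The 4 with the smallest adjusted p were Myof, a dysferlin relative, at -0.73, Ehd1, a membrane-remodelling ATPase, at -0.68, Capn1, a calcium-activated protease, at -0.64 and Chmp2a, a subunit of the ESCRT machinery, at -0.62 on the log2 scale. Vps4b, the ATPase that recycles ESCRT, had a log2 fold change of 0.28 and was not called. The list's median was -0.56, beside -0.31 over all tested genes, and 5 genes were called lower without MK-8617 replicate 1.

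Markers of other kidney cells were counted in the same samples, where 38.7% of all tested genes were lower and 35.7% higher. Of 15 injured tubule markers 9 were tested and 6 were lower, among them Havcr1 (kidney injury molecule 1), which had 14094, 15495 and 13637 normalised reads with MK-8617, against 38320, 40540 and 42199 with IRI alone (log2 fold change -1.49 ± 0.11 SE, adjusted p = 6.49e-05 by limma). Cd44, Clu and Vim were lower by -1.66, -0.93 and -1.27. The summed level of the 9 listed markers was 63175 to 68848 with MK-8617 and 126399 to 137956 with IRI alone, with no overlap.

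Of 11 fibroblast and pericyte markers 8 were tested, 7 were lower and 1 was higher, and Col1a1, Col1a2, Acta2 and Col3a1 were lower by -2.17, -1.79, -2.04 and -2.08. The summed level of the 8 listed markers was 6471 to 8244 with MK-8617 and 19455 to 34688 with IRI alone. The single higher call was lost without MK-8617 replicate 1 or 3. Of 14 proximal tubule markers 3 were tested, and Slc22a8 was higher (log2 fold change 1.85), with 2 higher calls without IRI replicate 1, 2 or 3. Of 11 endothelial markers 2 were tested, Esam and Emcn, and neither was called, although 1 was called lower without MK-8617 replicate 3 and 1 higher without IRI replicate 3. None of the 14 lymphocyte markers was listed. No marker of these lists was at 0 in any sample, apart from those named for neutrophils. The part of cell makeup in the values of S100a6, Anxa2 and Anxa3 was not tested.

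Genes of like pattern were sought by the root mean square distance between log2 values over the 6 samples, each relative to its IRI mean. Nearest to S100a6 were Atp5k, a subunit of ATP synthase (0.24), Slpi, a secreted protease inhibitor (0.261), and Tma7-ps (0.294). Nearest to S100a9 were Ccdc159 (0.0923), Coro1a, an actin regulator of leukocytes (0.161), and S100a8 (0.17). Nearest to S100a8 were S100a9, the myeloid Fc receptor gene Fcgr1 (0.201) and Ccdc159 (0.207).

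Closest to Anxa2 were Phlda3, a p53 target (0.0748), Ak1, adenylate kinase (0.109), and Phgdh, the first enzyme of serine synthesis (0.12). Closest to Anxa3 were Ethe1, a mitochondrial sulfur dioxygenase (0.0602), and Oscp1 (0.075). The calprotectin genes were each among the 3 nearest of the other, whereas the nearest genes of Anxa2 and Anxa3 included neither S100 genes nor annexins. These distances describe 6 samples and carry no test.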

How the data were processed

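The submitters' processing notes list DESeq2 1.20.0, featureCounts 1.5.0-p3, HISAT2 2.0.5, fastp and CASAVA 1.8. They name GRCh38 (hg38), but 7338 of the 7340 gene IDs matched mouse GENCODE M21 (GRCm38), which was used. Libraries were made from TRIzol RNA with the NEBNext Ultra kit, per the labels' protocols. The deposited table gives read counts, counts scaled for library size (a normalised signal that returned whole reads within 0.001 in every sample), FPKM, the p-value and adjusted p-value of each gene, and log2 fold changes, all by the authors. The largest listed p-value in the deposited table is 0.0499. Another 13 columns were empty and not used, and 11 symbols turned into dates were restored.

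The authors' scaled counts were tested as log2(value + 1) with limma 3.58.1 (trend and robust options, R 4.3.3), after a filter with edgeR 4.0.16 on at least 10 reads that left 6961 genes. P-values were adjusted by Benjamini-Hochberg over 18811 genes, the number that the deposited adjusted p-values imply. Intervals and tests cover the spread between 3 samples a group. The script was tested on simulated data. Alternatives changed pseudocount, filter, unit, scaling, tool (DESeq2 1.42.0, edgeR, limma-voom), replicate block, adjustment, length and GC trends, and left out each sample.

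The members and the 13 lists were chosen with earlier results of these data known. Named were all family genes listed, up to 4 members of each other list with the smallest adjusted p, and the 3 genes nearest in pattern to each of 5 members. Ager, Ggt1, Hdc, Wfdc21, Vps4b, Tchh, Tchhl1 and Sprr1a were named beside these after their values were seen. Some genes that this rule names are not reported here.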

Additional observations from a re-analysis of the deposited data

How the results depend on the processing

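Anxa2, Anxa3, Anxa5, Anxa6, S100a1, S100a6, S100a13 and S100a16 kept direction and call in all 19 alternatives, and S100a14 in the 18 that kept it. S100a10 changed sign with the length trend removed (0.046) and with length and GC trends removed (0.032). The 9 lower calls of the named genes became 4 and 5 under these, and the 10 of the S100 family 5 and 5. Of 6959 tested genes, 2514 and 2427 were called lower under the same settings. Leaving out 1 sample gave 5 to 8 of the named genes. With both trends removed, the log2 difference of the S100a10 to Anxa2 ratio was 1.49 and that of S100a11 to Anxa1 was 0.44. The cause was not tested.

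The replicate block (numbers shared between groups) left the 9 named lower calls at 8 and changed the call of S100a10 (adjusted p = 0.0696 by limma). Same-numbered samples had correlations of deviations of 0.021, 0.116 and 0.115, and all 6 samples correlated best with their own number. The labels do not say whether equal numbers mark a pair. List counts that moved were as follows. The block gave 1 plasminogen gene and 1 neutrophil marker lower, and 2 neutrophil and 2 proximal tubule markers higher. Adjusting over listed genes gave 6 partners, 1 plasminogen gene, 3 neutrophil and 1 endothelial marker lower, and 3 partners, 1 repair gene, 1 endothelial, 1 injured tubule and 3 proximal tubule markers higher. TMM scaling gave 3 partners, 1 repair gene, 1 endothelial and 1 injured tubule marker higher in edgeR and limma-voom, with 1 neutrophil marker lower in edgeR and 2 proximal tubule markers higher in limma-voom. With deposited size factors, edgeR gave 1 repair gene higher and 1 neutrophil marker lower, and DESeq2 gave 2 partners, 1 repair gene and 3 proximal tubule markers higher. FPKM or a pseudocount of 5 gave 1 neutrophil marker lower. Without a filter, 2 neutrophil markers were lower, and 1 repair gene and 2 proximal tubule markers were higher. With a mean of at least 5 CPM, 0 neutrophil markers were higher and 7 macrophage markers were lower. Removing either trend gave 2 partners and 1 injured tubule marker higher. Leaving out 1 sample gave 0 to 2 partners, 0 to 1 endothelial, 0 to 1 fibroblast and 1 to 2 proximal tubule markers higher, and 0 to 1 plasminogen genes, 5 to 9 repair genes, 0 to 2 neutrophil and 0 to 1 endothelial markers lower.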
